A study of Mus musculus with 2 samples.

Results

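The genes described here encode the collagens, laminins and integrins, together with fibronectin (Fn1), the nidogens (Nid1 and Nid2) and perlecan (Hspg2). They were chosen by gene symbol: of 75 symbols in the deposited gene table that matched these families, 54 reached 10 reads over the pair of libraries. Those 54 genes, of 13426 genes tested and 16803 listed, comprised 30 collagens, 8 laminins, 12 integrins and the 4 others. RNA came from NE4C cells, a neural stem cell line of the mouse, grown on poly-L-lysine. The control library was made from a normal culture. The HTL treatment library was made from a culture given homocysteine thiolactone (HTL), a reactive ring form of homocysteine that can modify lysine residues. The sample labels give no dose and no duration for HTL, and the cells are of a single line.

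Cells anchor themselves to extracellular matrix through integrins, which are membrane receptors made of an alpha and a beta chain. In a basement membrane, laminin trimers and a network of type IV collagen are joined by nidogens and perlecan, while fibrillar collagens and fibronectin build fibres. In the embryo, neuroepithelial cells sit on such a basement membrane along the outer face of the closing neural tube.

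Each condition had 1 library, so no value below has a replicate check. Tests and intervals compare these libraries, not the conditions, and cover counting error only. The control library held 10350665 reads and the HTL treatment library 9102076, with 611 and 1209 of the listed genes at 0 reads. A gene at 0 reads could still stand at up to 0.29 and 0.33 counts per 1000000 reads (CPM) in them. Neural stem cell markers were present but not at equal levels: Nes had 1617 and 1365 reads in the control and HTL treatment libraries, and Sox2 had 894 and 285. Fabp7, another marker, had 2 reads in each.

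Of the 54 genes, 35 had log2 ratios within 0.5 of 0 (64.8%, against 55.3% of all genes tested), and 4 were called. For scarce genes the intervals are wide, so a ratio near 0 does not show that the difference was small. A call required a log2 ratio of at least 1 in size and, from the exact binomial test adjusted by Benjamini-Hochberg across the table, p no higher than 0.001. Itga5, an integrin chain of the fibronectin receptor, and Col9a2, a chain of type IX collagen, were higher under HTL. Col8a1, a network-forming collagen of vessel walls and the cornea, and Col27a1, a fibrillar collagen of cartilage, were lower. The 2 higher genes are 3.70% of the 54, against 2.82% of all genes tested, and the 2 lower genes are also 3.70%, against 7.98% of all genes tested. Under 3 other scalings (TMM, median of ratios and upper quartile) the same number of these genes was called in each direction, while 3.71% to 4.16% of all genes were called higher and 5.88% to 6.41% lower, so the share of higher calls was not above that of genes at large. With 2 calls in each direction, the counts cannot show that these families were called more or less often than genes at large.

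Windows at the start sites of the called genes, and of the type IV collagen pair that is transcribed from a common region, are given first. They run from 250 bases before to 50 bases after the start, from RefSeq on GRCm38.p6, and are read 5′ to 3′ on the strand of the gene. An entry was found for 39 of the 54 genes. In the first pair, capitals mark the 78 bases that both windows hold, in opposite orientation.
Col4a1 (chr8:11312777-11313076, minus strand): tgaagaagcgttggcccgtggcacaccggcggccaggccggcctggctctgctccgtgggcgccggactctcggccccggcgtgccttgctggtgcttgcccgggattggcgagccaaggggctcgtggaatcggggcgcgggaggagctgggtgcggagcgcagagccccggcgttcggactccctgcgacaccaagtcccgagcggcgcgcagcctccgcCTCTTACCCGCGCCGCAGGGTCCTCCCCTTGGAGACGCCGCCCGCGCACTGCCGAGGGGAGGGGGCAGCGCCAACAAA
Col4a2 (chr8:11312555-11312854, plus strand): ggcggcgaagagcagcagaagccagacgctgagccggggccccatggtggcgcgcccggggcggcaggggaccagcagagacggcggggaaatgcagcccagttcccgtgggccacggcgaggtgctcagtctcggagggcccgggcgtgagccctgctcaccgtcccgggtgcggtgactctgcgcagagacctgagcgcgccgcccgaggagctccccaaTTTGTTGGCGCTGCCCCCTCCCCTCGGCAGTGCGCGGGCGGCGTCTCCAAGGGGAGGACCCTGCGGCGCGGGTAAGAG

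The shared stretch, chr8:11312777-11312854, was 73.1% G or C. It held 1 GC box (GGGCGG or its reverse complement) and no CCAAT or TATAAA on either strand. On the older NCBIM37 assembly the annotated Col4a1 and Col4a2 transcripts overlap by 22 bases at their first exons.

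In the windows of the called genes below, capitals mark GC boxes on either strand. No CCAAT or TATAAA was present in them.
Itga5 (chr15:103366742-103367041, minus strand): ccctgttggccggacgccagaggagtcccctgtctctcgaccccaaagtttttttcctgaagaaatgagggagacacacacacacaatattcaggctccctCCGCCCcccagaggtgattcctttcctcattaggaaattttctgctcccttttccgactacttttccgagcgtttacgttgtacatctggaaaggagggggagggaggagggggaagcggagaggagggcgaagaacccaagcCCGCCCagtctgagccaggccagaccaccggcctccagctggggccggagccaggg
Col9a2 (chr4:121039316-121039615, plus strand): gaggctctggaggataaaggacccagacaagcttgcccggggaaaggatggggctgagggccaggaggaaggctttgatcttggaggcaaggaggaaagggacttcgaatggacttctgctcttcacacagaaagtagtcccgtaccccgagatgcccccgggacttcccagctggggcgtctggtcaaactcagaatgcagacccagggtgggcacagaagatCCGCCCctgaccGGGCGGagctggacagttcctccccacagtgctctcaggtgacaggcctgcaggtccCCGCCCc
Col8a1 (chr16:57754688-57754987, minus strand): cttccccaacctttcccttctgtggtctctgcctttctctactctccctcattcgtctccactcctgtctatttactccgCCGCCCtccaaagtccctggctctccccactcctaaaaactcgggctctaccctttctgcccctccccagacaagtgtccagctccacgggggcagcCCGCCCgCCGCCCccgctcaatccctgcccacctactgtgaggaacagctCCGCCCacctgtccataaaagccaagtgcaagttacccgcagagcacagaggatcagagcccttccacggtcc
Col27a1 (chr4:63215162-63215461, plus strand): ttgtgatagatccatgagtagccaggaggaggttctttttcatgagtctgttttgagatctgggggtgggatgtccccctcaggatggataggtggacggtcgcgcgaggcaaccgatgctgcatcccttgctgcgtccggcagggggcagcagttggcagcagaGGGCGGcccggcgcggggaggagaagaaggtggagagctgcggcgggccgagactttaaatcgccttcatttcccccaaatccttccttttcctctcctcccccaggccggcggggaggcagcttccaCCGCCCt

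The genes higher under HTL thus had GC boxes in these windows, and so did the lower ones. GC boxes were present in 30 of the 39 windows (76.9%), in 65.6% of windows of tested genes and in 35.7% of all windows. The letters CCAAT were found in 13 of 39 (33.3%, against 39.6% of tested genes and 37.4% of all windows), and TATAAA in 2 of 39, those of Col11a2 and Col3a1 (5.13%, against 6.61% and 13.6%). These matches describe letters in a fixed window and do not show that a factor binds there.

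The level of each gene is given in fragments per kilobase of transcript per 1000000 reads (FPKM), which allows comparison between genes of different length. The spread between genes was wide. Col18a1, a basement membrane collagen, was the most abundant at 51.66 FPKM in the control and 72.89 FPKM under HTL. At the other end Lama3 was lowest in the control (0.07 FPKM, and 0.10 under HTL), and Itga10 and Col6a5 were lowest under HTL (0.09 FPKM each). The 14 genes with at least 1000 reads took 88.9% of all reads of the 54 genes in the control. Of the 10 most abundant genes in each library, 9 were shared. These were matrix genes, mostly of basement membranes (Col18a1, Col4a1, Nid2, Fn1, Lamb1 and Lamc1), and receptor chains (Itga6, Itgb1 and Itgb5).

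**Figure D1:**
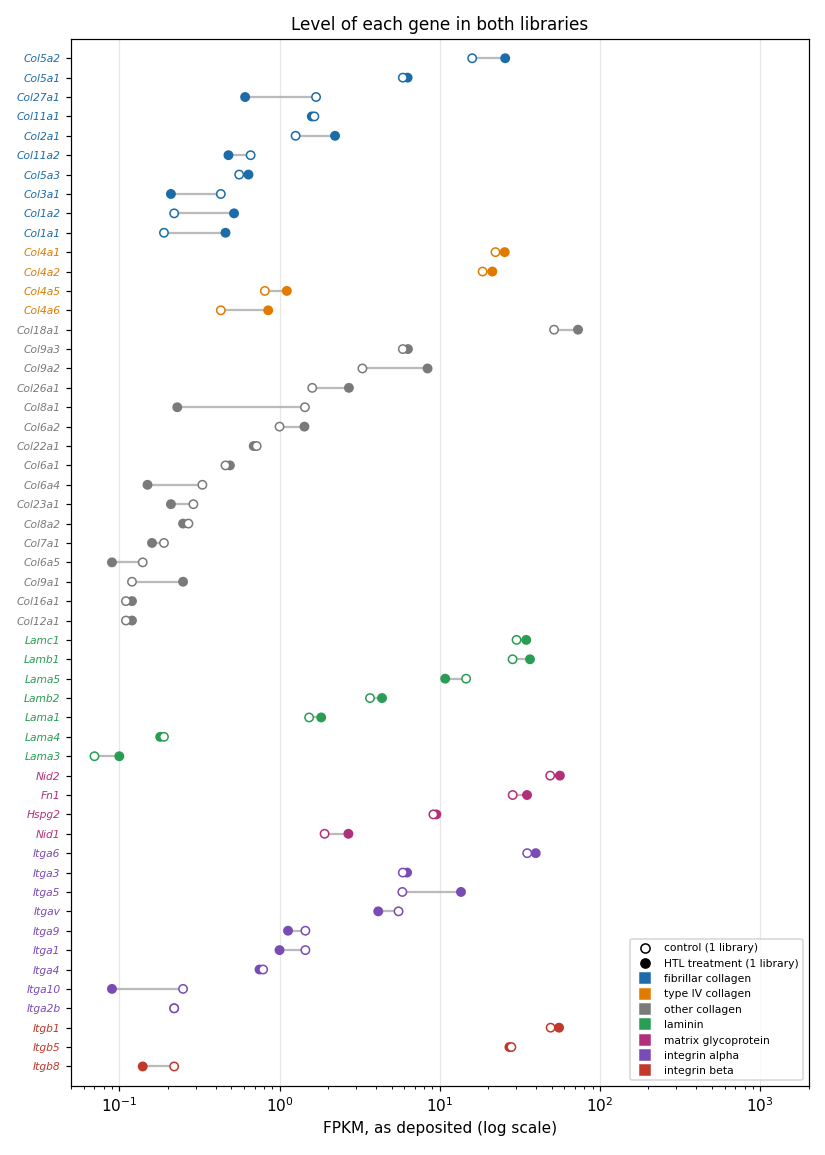
Level of the genes in FPKM (log scale), with the control library as open circles and the HTL treatment library as filled circles, coloured by class and sorted within class by control level. Most pairs of circles lie close together, while Col8a1 moved from 1.44 to 0.23 FPKM and Itga5 from 5.84 to 13.56 FPKM.

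Summed over the 54 genes, reads went from 27735 to 28577, which was 2680 CPM in the control and 3140 CPM under HTL. The log2 ratio of that sum was 0.23 (95% interval 0.20 to 0.25, counting error only), and it was 0.36 under TMM, 0.37 under median of ratios and 0.32 under upper quartile scaling. The median log2 ratio of single genes was 0.17, compared with -0.14 over all genes tested. There were 33 genes above 0 and 21 below, and the intervals of 29 included 0. Log2 ratios of 35 genes (64.8%) lay within 0.5 of 0, compared with 55.3% of all genes tested.

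Among the 4 genes of type IV collagen, the network protein of basement membranes, all log2 ratios were above 0 and none was called. Col4a1 had 1547 control and 1557 HTL treatment reads (22.26 and 25.42 FPKM), a log2 ratio of 0.19 (0.092 to 0.30). Col4a2 had 1254 and 1270 reads (18.51 and 21.28 FPKM), a log2 ratio of 0.20 (0.090 to 0.32). The chains of the common trimer thus kept their balance: Col4a1 supplied 55.2% of the reads of the pair in the control (exact 95% interval 53.4 to 57.1) and 55.1% under HTL (53.2 to 56.9). This share does not depend on how the libraries are scaled. Their transcripts overlap and the use of strand in counting is not stated, so a few reads could be assigned to either gene. The head-to-head pair on the X chromosome, separated by 1308 bases on NCBIM37, was low. Col4a5 had 54 and 65 reads (0.81 and 1.11 FPKM), and Col4a6 had 30 and 52 reads (0.43 and 0.85 FPKM). Col4a5 supplied 64.3% of that pair (53.1 to 74.4) in the control and 55.6% (46.1 to 64.7) under HTL, with overlapping intervals.

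Laminins are trimers of an alpha, a beta and a gamma chain. The 3 abundant chains did not move together. Lamb1 had 1721 control and 1948 HTL treatment reads (28.46 and 36.56 FPKM), and Lamc1 had 2408 and 2438 (30.14 and 34.63 FPKM). Their log2 ratios were 0.36 (0.27 to 0.46) and 0.20 (0.12 to 0.29). Lama5, the main alpha chain here, went the other way, from 1748 to 1141 reads (14.60 to 10.81 FPKM), with a log2 ratio of -0.43 (-0.54 to -0.32). The exact binomial test, Benjamini-Hochberg adjusted, gave p = 2.39e-14 for Lama5, 1.57e-13 for Lamb1 and 3.52e-06 for Lamc1, but each change was smaller than the log2 cutoff. Lama5 supplied 42.1% of the reads of Lama5 and Lamc1 together in the control (40.6 to 43.6) and 31.9% under HTL (30.4 to 33.4), and these intervals do not overlap. Lama5 has a transcript of 11404 bases, and its log2 ratio was only 0.052 below the median of genes of similar length. Lama1, the other alpha chain of early embryonic basement membranes, had 153 and 160 reads (1.53 and 1.82 FPKM).

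Other laminin chains were scarcer. Lamb2, the beta chain of mature basement membranes, had 216 and 226 reads (3.67 and 4.36 FPKM). Lama4 had 12 and 10 reads, and Lama3 had 8 and 10. None of these 3 was called.

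Nidogens, perlecan and fibronectin all had log2 ratios above 0, and none was called. Nid2 had 2510 and 2542 reads (48.87 and 56.17 FPKM, log2 ratio 0.20, 0.12 to 0.28). Nid1, the related linker, was far lower, with 121 and 150 reads (1.91 and 2.69 FPKM, log2 ratio 0.49, 0.14 to 0.85). It made up 4.60% of nidogen reads in the control and 5.57% under HTL, with overlapping intervals (3.83 to 5.47 and 4.74 to 6.51). Hspg2, the large proteoglycan perlecan, had 1360 and 1251 reads (9.12 and 9.52 FPKM, log2 ratio 0.065, -0.047 to 0.18). Fn1, the main ligand of the Itga5 receptor, had 2472 and 2665 reads (28.51 and 35.03 FPKM, log2 ratio 0.29, 0.21 to 0.37).

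The make-up of the integrin alpha chains differed between the libraries. Itga5 rose from 271 control reads to 554 HTL treatment reads (5.84 to 13.56 FPKM). Its log2 ratio was 1.22 (1.00 to 1.43) with p = 1.11e-30 (exact binomial test, Benjamini-Hochberg). Itgb1, the beta chain that Itga5 and most other alpha chains here pair with, had 2153 and 2142 reads (49.17 and 55.51 FPKM, log2 ratio 0.18, 0.091 to 0.27). Itga6, a laminin receptor chain, was the most abundant alpha chain, with 2166 and 2157 reads (35.13 and 39.71 FPKM, log2 ratio 0.18, 0.093 to 0.27). Its share of the reads of Itga6 and Itgb1 was 50.2% in both libraries. Itga3, another laminin receptor chain, had 300 and 281 reads (5.88 and 6.25 FPKM, log2 ratio 0.091, -0.15 to 0.33).

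Itgav, an alpha chain of receptors for vitronectin and fibronectin, went in the opposite direction from Itga5. It had 409 control and 269 HTL treatment reads (5.53 and 4.13 FPKM), with a log2 ratio of -0.42 (-0.65 to -0.19). Its adjusted p was 0.00058 (exact binomial test, Benjamini-Hochberg) and its log2 ratio missed the cutoff. In the control library Itga5 and Itgav stood at nearly the same level, with an FPKM ratio of 1.06, and under HTL the ratio was 3.28. In reads, Itga5 took 39.9% of the reads of both genes in the control (36.2 to 43.6) and 67.3% under HTL (64.0 to 70.5). Partner pairs were chosen after their values were seen, so these shares are a description. Itgb5, a beta partner of Itgav, had 963 and 825 reads (27.98 and 27.20 FPKM, log2 ratio -0.038, -0.17 to 0.098), and Itgav made up 29.8% of the reads of the pair (27.4 to 32.3) in the control and 24.6% (22.1 to 27.3) under HTL. An annotated gene on the opposite strand shares exon sequence with Itgav, and reads of the pair cannot be told apart without strand.

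The remaining integrins were low. Itga1, a collagen receptor chain, had 91 and 55 reads, with a log2 ratio of -0.54 (-1.05 to -0.042). Itga9 had 106 and 73, and Itga4 had 81 and 68. Itga10 had 13 and 4 reads, Itgb8 had 7 and 4, and Itga2b had 8 and 7. None of these 6 was called, and the intervals for the last 3 spanned more than the cutoff in at least 1 direction. Of the 9 alpha chains, 3 were above 0 and 6 below. Their summed level was 333 CPM in the control and 381 CPM under HTL, and Itga6 and Itga5 together held most of these reads.

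**Figure D2:**
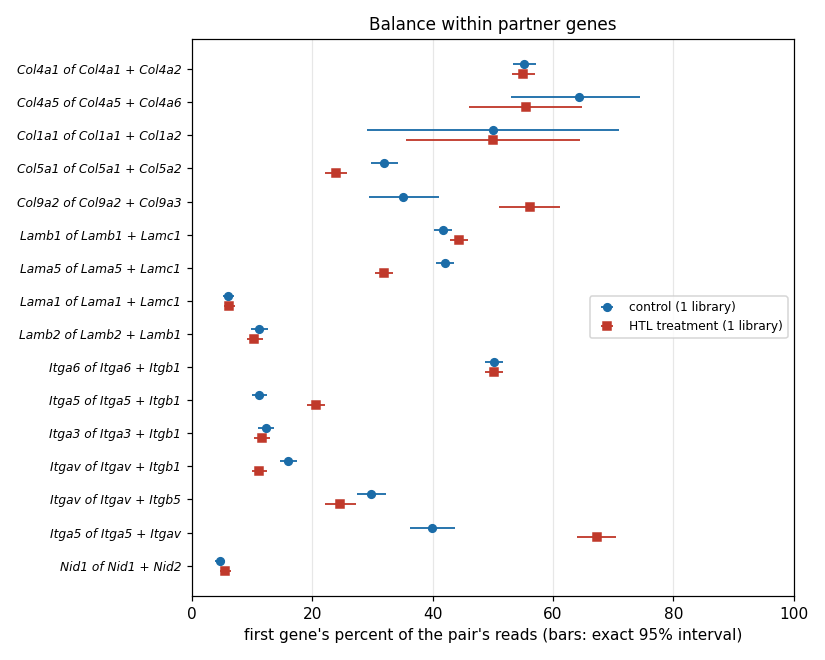
Share of reads, in percent, that the first gene took of the reads of 2 partner or related genes, in the control (circles) and the HTL treatment library (squares), with exact 95% intervals. Col4a1 with Col4a2 and Itga6 with Itgb1 kept overlapping intervals, while Itga5 against Itgav went from 39.9% to 67.3% and Lama5 against Lamc1 from 42.1% to 31.9%.

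Log2 ratios of the 10 fibrillar collagens ran from -1.46 for Col27a1 to 1.21 for the type I chains, with 1 call. Col5a2, a chain of type V collagen, which helps to start type I fibrils, had 1104 control and 1563 HTL treatment reads (15.93 and 25.60 FPKM), with a log2 ratio of 0.69 (0.57 to 0.80). Its adjusted p was 4.07e-33 (exact binomial test, Benjamini-Hochberg), and it was not called because it missed the log2 cutoff. Col5a1, the chain that joins it in the trimer, had 519 and 490 reads (5.88 and 6.30 FPKM, log2 ratio 0.10, -0.079 to 0.28). Hence Col5a1 supplied 32.0% of the reads of the pair in the control (29.7 to 34.3) and 23.9% under HTL (22.0 to 25.8). Col27a1 fell from 135 to 43 reads (1.69 to 0.61 FPKM), a log2 ratio of -1.46 (-1.996 to -0.96) with an adjusted p of 3.07e-09 (exact binomial test, Benjamini-Hochberg). As the ratio of FPKM + 1 its log2 ratio was -0.74, short of the cutoff. Col27a1 is on chr4:62875038-62996025, plus strand, on NCBIM37.

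The classical fibrillar collagens of bone, skin and cartilage were scarce. Col2a1, of cartilage and notochord, had 66 and 104 reads (1.26 and 2.22 FPKM, log2 ratio 0.84, 0.38 to 1.31). Col1a1 and Col1a2, the chains of type I collagen, each had 12 control and 25 HTL treatment reads. Their log2 ratio was 1.21 (0.20 to 2.37), with an adjusted p of 0.0251 (exact binomial test, Benjamini-Hochberg), so neither was called. Col3a1 had 25 and 11 reads (log2 ratio -0.97, -2.17 to 0.076). Col11a1 had 133 and 113 reads, Col11a2 had 45 and 28, and Col5a3 had 36 in each.

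The other collagens were led by Col18a1, with 2733 control and 3397 HTL treatment reads. Its log2 ratio was 0.50 (0.43 to 0.57), with the smallest adjusted p of the 54 genes, 2.78e-40 (exact binomial test, Benjamini-Hochberg), and it stayed short of the log2 cutoff. Type IX collagen decorates the surface of fibrils. Its gene Col9a2 rose from 94 to 211 reads (3.29 to 8.39 FPKM), a log2 ratio of 1.35 (0.99 to 1.72) with an adjusted p of 2.53e-14 (exact binomial test, Benjamini-Hochberg). Col9a3, the gene of another chain of the same trimer, had 174 and 165 reads (5.88 and 6.33 FPKM, log2 ratio 0.11, -0.21 to 0.42), and Col9a1 had 4 and 9. The share of Col9a2 in the reads of Col9a2 and Col9a3 was 35.1% (29.4 to 41.1) in the control and 56.1% (50.9 to 61.2) under HTL. Col9a3 shares exon sequence with Tcfl5 on the opposite strand.

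Col8a1 had the lowest ratio of the 54 genes. It fell from 77 to 11 reads (1.44 to 0.23 FPKM), a log2 ratio of -2.57 (-3.68 to -1.70), with an adjusted p of 5.56e-11 (exact binomial test, Benjamini-Hochberg). As the ratio of FPKM + 1, which understates differences of low genes, its log2 ratio was -0.99 and it was not called. Col8a2, the second chain of type VIII collagen, had 12 and 10 reads. On NCBIM37, Col8a1 lies on chr16:57624371-57754850, minus strand, Itga5 on chr15:103174720-103197194, minus strand, and Col9a2 on chr4:120711990-120727927, plus strand. No exon of another annotated gene overlaps these or Col27a1, while Fn1, Nid2, Col5a1, Col1a1, Col22a1 and Itga4 each share exon sequence with a gene on the opposite strand, which leaves part of their reads uncertain.

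The rest of the collagens had few reads and none was called. Col26a1 had 45 and 67 reads, with a log2 ratio of 0.75 (0.19 to 1.34). Of type VI collagen, a microfibril protein, Col6a2 had 39 and 49 reads, Col6a1 had 19 and 18, Col6a4 had 26 and 10, and Col6a5 had 14 and 8. Col6a4 had a log2 ratio of -1.16 (-2.41 to -0.093) with an adjusted p of 0.0507 (exact binomial test, Benjamini-Hochberg). Col22a1 had 46 and 39 reads, Col7a1 had 18 and 14, Col23a1 had 17 and 11, Col12a1 had 13 in each and Col16a1 had 6 in each. Each of these genes had an interval wider than 1 log2 unit.

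**Figure D3:**
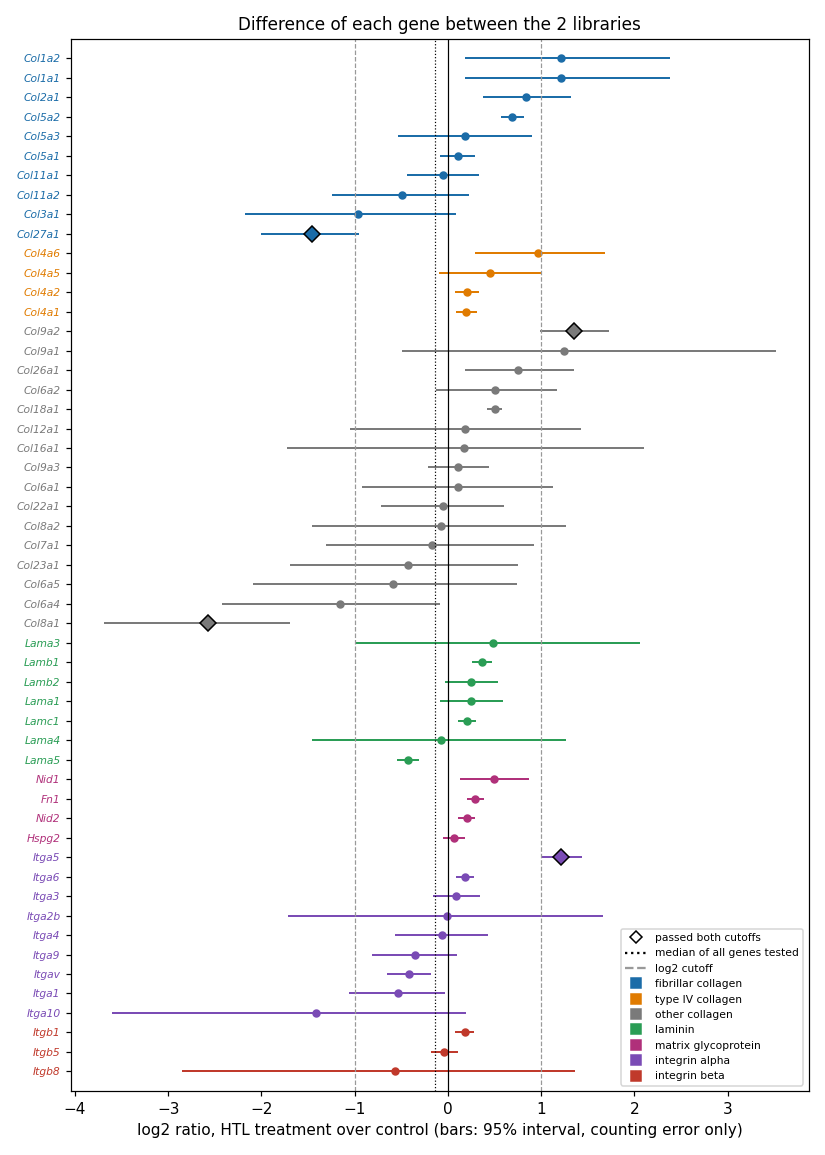
The log2 ratio of HTL treatment over control for single genes of these families, scaled to library totals, with 95% intervals from counting error. Diamonds mark Itga5, Col9a2, Col8a1 and Col27a1, which passed both cutoffs, and the dotted line marks the median of all genes tested, -0.14. Intervals are narrow for genes such as Fn1 (0.21 to 0.37) and wide for genes such as Col9a1 (-0.49 to 3.51).

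On the adjusted p alone, 17 of the 54 genes passed, 13 higher and 4 lower, where 14.6% of all genes tested passed as higher and 24.1% as lower. Among the higher genes were Fn1, Nid2, Col2a1, Col5a2, Col4a1, Col9a2, Col18a1, Lamb1, Lamc1, Itga5, Itga6 and Itgb1. The lower genes were Col8a1, Col27a1, Lama5 and Itgav. The split of the 54 genes thus leaned to higher values and that of all genes to lower ones. Among related lists described below, integrin adhesion genes (7 higher, 2 lower) and other matrix proteins and receptors (8 and 6) also leaned higher. Collagen folding genes (5 and 7) and matrix proteases and inhibitors (1 and 2) did not. Of the 12 genes at 10 FPKM or above in both libraries, 10 had a log2 ratio above 0, their log2 ratios ran from -0.43 to 0.69, and none was called. Ratios near or below 0 came more from scarce genes: the median was -0.052 over the 23 genes under 100 reads (-0.28 for all genes of that depth), 0.25 over the 17 with 100 to under 1000 reads (-0.17) and 0.20 over the 14 with at least 1000 reads (-0.049).

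These genes have long transcripts, and in these libraries ratios moved with transcript length. The median length of the 54 was 5965 bases, from 2705 for Col26a1 to 14201 for Hspg2, against 2889 for all genes tested. Over all genes tested, Spearman's rho of length and log2 ratio was -0.18, given as a description because all genes share the same 2 libraries. When the genes tested were divided by length into 10 bins of equal size, the median log2 ratio went from 0.14 in the shortest bin to -0.28 and -0.38 in the 2 longest, where 42 of the 54 genes lay. In those 2 bins 12.7% of all genes were called lower and 1.82% higher.

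Against genes of like length, the matrix and integrin genes stood higher than against library totals. There were 42 above the median of their own bin and 12 below (22.2%), where 6710 of all 13426 genes tested lay below theirs. The median of their log2 ratios after subtraction of the bin median was 0.45. All 4 type IV collagens, all of Fn1, Nid1, Nid2 and Hspg2, 7 of 8 laminins, 23 of 30 collagens in all and 8 of 12 integrins stood above their bin. Lama5 and Itgav lay at their bin, 0.052 and 0.041 below its median. With the bin median subtracted before the log2 cutoff was applied, 6 genes were called. The 4 higher were Itga5, Col9a2, Col2a1 and Col5a2, and the 2 lower were Col8a1 and Col27a1, where 3.81% of all genes were called higher and 5.77% lower. Related lists described below also stood above their bins. This held for 19 of 26 integrin adhesion genes (median 0.30 after subtraction) and 22 of 32 other matrix proteins and receptors (0.29). It was weaker for 13 of 20 matrix proteases and inhibitors (0.11) and 15 of 26 collagen folding genes (0.059). Standing above the bin was thus not particular to the matrix and integrin genes, though their median of 0.45 exceeded those of these lists. The part of transcript length in these values was not tested.

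**Figure D4:**
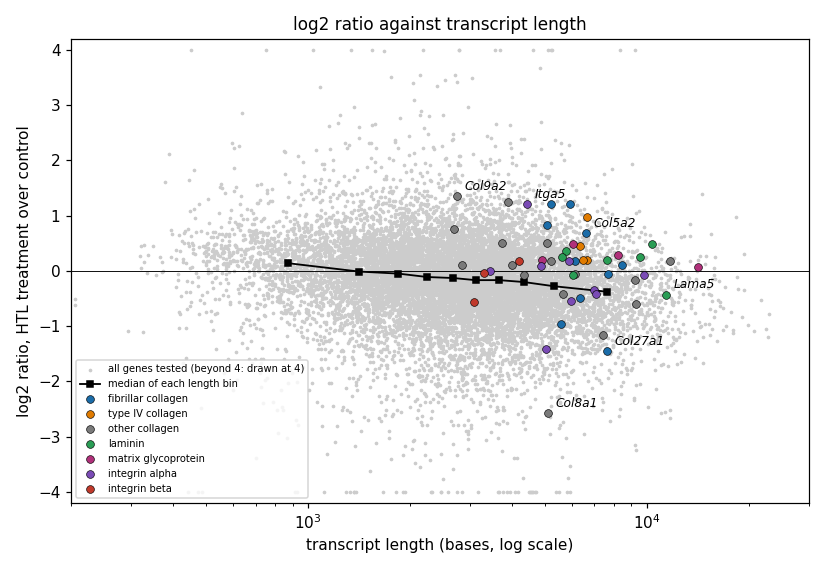
The log2 ratio of HTL treatment over control against transcript length in bases (log scale) for all genes tested (grey) and genes of these families (coloured by class), with squares for the median of each of 10 length bins, which goes from 0.14 to -0.38. Most coloured points lie at the long end and above the line of squares, and Lama5 lies on it.

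Several of these genes are neighbours in the genome. Of 7 neighbouring pairs less than 200000 bases apart on NCBIM37, 6 had log2 ratios of the same sign. The exception was Col3a1 and Col5a2 on chromosome 1, 24614 bases apart on opposite strands, with log2 ratios of -0.97 and 0.69, where Col3a1 had few reads and an interval that included 0 (-2.17 to 0.076). In 4 of the 6 pairs with a common sign, at least 1 gene also had an interval that included 0, and 33 of all 54 genes lay above 0, so the tally shows no more than that most of these pairs had a common sign. Col6a5 and Col6a4, 28810 bases apart on chromosome 9, had log2 ratios of -0.59 and -1.16, both with few reads.

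Genes that fold and modify collagen chains were measured in the same libraries. Of 26 tested, 1 was called higher and 1 lower (3.85% each, against 2.82% and 7.98% of all genes tested), and the median log2 ratio was -0.073, against -0.14 over all genes. Serpinh1, the collagen chaperone of the endoplasmic reticulum, rose from 1337 to 3049 reads (57.57 to 148.93 FPKM), a log2 ratio of 1.37 (1.28 to 1.47). P3h4, which takes part in lysine hydroxylation of collagen, fell from 79 to 31 reads, a log2 ratio of -1.15 (-1.81 to -0.55). On the adjusted p alone 5 were higher and 7 lower, where 14.6% and 24.1% of all genes were. P4ha1, a catalytic chain of prolyl hydroxylase, was among the lower, with 760 and 346 reads (log2 ratio -0.95, -1.14 to -0.76). P4hb, the other chain of that enzyme and a general disulfide isomerase, was among the higher, with 4670 and 6515 reads (log2 ratio 0.67, 0.61 to 0.72).

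Of 26 genes of the complex that links integrins to actin, 1 was called higher (3.85%, against 2.82% of all genes tested) and none lower (against 7.98%). Pxn, which encodes the adaptor paxillin, rose from 272 to 500 reads (6.99 to 14.55 FPKM), a log2 ratio of 1.06 (0.85 to 1.28). Tln1, the talin that binds integrin tails, had 1240 and 1094 reads (log2 ratio 0.0047, -0.11 to 0.12). The median of the 26 was 0.031. Of 20 matrix proteases and inhibitors, Adamts9, a protease that cuts versican, was the only call (1 of 20 lower, against 7.98% of all genes tested), with 520 and 131 reads (log2 ratio -1.80, -2.09 to -1.52).

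Of 32 other matrix proteins and matrix receptors, 3 were called higher (9.38%, against 2.82% of all genes tested) and 2 lower (6.25%, against 7.98%), and 16 were above 0. These counts are for library totals and shift with scaling. Ddr1 had a log2 ratio of 0.90, but 1.03 under TMM, 1.04 under median of ratios and 0.996 under upper quartile scaling. Reln, at -0.076, was above 0 under all 3. Fbln5, an elastic fibre protein, rose from 22 to 96 reads, and Spp1 (osteopontin) rose from 37 to 71. Ddr2, a collagen receptor kinase, had 0 and 11 reads. Against a floor of 3 reads in the control it was 4.17-fold higher, with the 11 HTL treatment reads taken as exact. That value is not a lower bound, because the exact interval of the Ddr2 log2 ratio started lower, at 1.51. The proteoglycan Vcan (versican) fell from 155 to 32 reads, and the guidance protein Ntn1 (netrin) fell from 64 to 15. Their log2 ratios were -2.07 (-2.69 to -1.53) and -1.88 (-2.83 to -1.08).

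Markers of neural stem cells and of other cell types were measured in the same libraries. Of 7 neural stem cell markers tested, 3 were called lower (Sox2, Sox1 and Vim) and none higher, where 7.98% of all genes tested were called lower and 2.82% higher. They did not move as a set: Prom1 had 443 and 555 reads (log2 ratio 0.51, 0.33 to 0.69), Pax6 had 69 and 66 (0.12, -0.39 to 0.63), and Msi1 had 617 and 555 (0.033, -0.14 to 0.20). All 4 epithelial markers had log2 ratios above 0, and 2 of them (Cdh1 and Krt8) were called higher. The summed level of the 4 was 40.3 FPKM in the control and 85.5 FPKM under HTL, with Cdh1 at 251 and 667 reads, Epcam at 733 and 1263, and Krt8 at 4 and 20. Fibroblast markers gave 1 call in each direction among 5, with Thy1 higher and Pdgfrb lower. Of 4 neuron markers, 2 were above 0 and 2 below. Dcx was called lower, with 88 and 29 reads, Map2 had 114 and 66, Tubb3 had 296 and 396 (log2 ratio 0.60, 0.38 to 0.83), and Rbfox3 had 34 and 38. No endothelial marker of 3 was called, and the 1 blood marker tested was not called either. Within bulk RNA, a change in the mix of cells and a change in RNA per cell cannot be told apart, and the part of these markers in the collagen, laminin and integrin values was not tested.

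The other 21 matching symbols had fewer than 10 reads over both libraries and were not tested. They were Col4a3, Col6a3, Col6a6, Col10a1, Col13a1, Col14a1, Col15a1, Col20a1, Col25a1, Lamb3, Lamc3, Itga2, Itga7, Itga8, Itga11, Itgal, Itgam, Itgb2, Itgb3, Itgb4 and Itgb7. Leukocyte integrins (Itgal, Itgam, Itgb2) and the epithelial beta chain Itgb4 are among them.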

How the data were processed

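NE4C RNA was sequenced as 1 control and 1 HTL treatment library, grouped by sample title. Per the labels, libraries were made with a TruSeq kit and run with BGISEQ protocols. The submitters' processing notes name the mouse build mm9. Aligner, annotation release and use of strand are not given in the sources used here. The authors deposited 1 table. It holds estimated counts per gene (RSEM, not normalized), deposited FPKM values scaled by the authors for length and depth, and transcript length. The deposited log2 ratio, p-value and FDR are the authors' own comparison and were not used.

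Estimated counts were rounded to whole reads, and genes that reached 10 reads over both libraries were tested by a two-sided exact binomial test against the library totals, with Benjamini-Hochberg adjustment. Cutoffs (adjusted p of 0.001, log2 ratio of 1) are those of the study. For log2 ratios 0.5 read, scaled to depth, was added. The 95% intervals are exact (Clopper-Pearson). No molecular identifiers were used, so reads may be copies of the same molecule. Values were computed with Python 3.11.15, numpy 2.4.6, scipy 1.17.1 and pandas 2.3.3, and edgeR 4.0.16 gave scalings and an alternative test. The scripts were tested on simulated counts with counting noise only, which does not bear on the spread between cultures.

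Genes named are all called genes, Fn1, Nid1, Nid2, Hspg2, the 3 highest control FPKM of each class, both type IV collagen pairs and the largest called rise and fall of each related list. Other genes were named after their values were seen. The families, lists, partner pairs, motifs and tests were chosen with earlier results of these data known, so no pattern here is independent support. Rows for 3 integrin-binding protein symbols (Itgb1bp and Itgb3bp) were left out. Values of 1 gene are not reported here singly and it is not drawn, though counts and sums include it. Gene positions came from GENCODE on NCBIM37, the assembly of mm9, and start-site windows from RefSeq on GRCm38.p6. Where a gene had several windows the first was used. Alternatives were other scalings, filters, cutoffs, added reads, FPKM ratios, length bins and the exact test of edgeR under assumed spreads.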

Additional observations from a re-analysis of the deposited data

How the results depend on the processing

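No paired analysis was possible because there was 1 library on each side, and none could be left out. The call of Itga5 and of Col9a2 held under upper quartile, TMM and median of ratios scaling, 5 reads added and the ratio of FPKM + 1. The calls of Col8a1 and Col27a1 held under the same settings except the ratio of FPKM + 1, where their log2 ratios were -0.99 and -0.74. That setting left 2 genes called, both higher (1.80% of all genes were called higher and 4.28% lower), and a median of the 54 genes of 0.074 (all genes -0.099). The other scalings raised that median to 0.30 (TMM), 0.31 (median of ratios) and 0.27 (upper quartile), with 4 genes called under each, 2 in each direction. Of all genes, 4.12%, 4.16% and 3.71% were then called higher and 5.95%, 5.88% and 6.41% lower. Under these 3 scalings the median of all genes was -0.0072, -0.00070 and -0.044, and 7 genes changed sign (Col11a1, Itga2b, Itga4, Itgb5, Lama4, Col22a1 and Col8a2), so 40 were above 0. Other cutoffs called 17 genes (adjusted p alone, 13 higher and 4 lower, against 14.6% and 24.1% of all genes), 1 lower (log2 ratio of at least 2 in size, against 0.551% higher and 1.59% lower) or 9 (log2 ratio of at least 1 in size with no test, 5 higher and 4 lower, against 4.72% and 12.2%). With a mean of at least 50 reads 3 of 31 genes were called, 2 higher and 1 lower (2.93% and 8.53% of all genes), since Col8a1 was then not tested. An assumed coefficient of variation between cultures of 0.1 in edgeR's exact test gave 4 calls (2.20% of all genes higher and 6.19% lower), while 0.2 left 0 (0.283% and 0.611%) and 0.4 left 0 (0.00745% and 0.0372%). At 0.2 and 0.4 so few genes of any kind were called that 0 of 54 is not particular to these genes. The spread between cultures cannot be had from these libraries. Genes below the median of their length bin numbered 7 to 13 of 54 over the settings tried, 4 of 31 with a mean of at least 50 reads and 18 of 75 with no filter. Depth limits the 23 genes under 100 reads most, and the intervals of 29 genes included 0.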
